A study of Mus musculus with 12 samples.

Results

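Liver tumours of male C3H/HeN mice were compared with normal liver of the same exposure line by gene expression array. The comparison uses 6 of the 12 arrays measured, 3 of tumours and 3 of normal liver, chosen by their titles alone. All 6 samples came from F2 males aged about 74 weeks, the grandchildren of F0 females that had 85 ppm sodium arsenite in their drinking water on gestation days 8 to 18. The F1 parents were in utero during that treatment and were mated at 10 weeks. Neither they nor the F2 males were given arsenite themselves. Tumours and normal livers share the exposure of the F0 pregnancy, so the comparison does not test it. The other 6 arrays are of non-tumour liver, 3 from the arsenite line and 3 from the control line, whose F0 females drank tap water. They add to the estimate of the spread, and the arsenite-line non-tumour liver serves below as another reference. How normal liver differs from non-tumour liver, and whether a tumour and a liver come from the same mouse, is not said by the labels. Samples of a group are numbered 1 to 3, and p-values measure the spread between these samples, which may be technical.

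C3H mice are prone to liver tumours that arise from hepatocytes late in life, more often in males. Hepatocytes make most plasma proteins, bile acids, urea and glucose, and they divide this work along the lobule between a periportal zone, which receives blood first, and a pericentral zone around the central vein, which depends on Wnt signalling. Liver of adult male mice also carries a sex-specific program set by pulses of growth hormone. Liver tumours commonly regain genes of fetal liver, such as Afp, and lose parts of the adult program.

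Each array gives 1 signal per probe. Values below are log2 levels, the log2 of that signal minus the 75th percentile of its array, so that a difference of 1 is 2-fold. They are listed for samples 1, 2 and 3 of a group, and levels of different genes are not compared, since each rests on its own probe. A gene is called changed at an adjusted p under 0.05, and differences carry the standard error (SE) of the fit (n = 3 per group). By this rule 8688 of 18104 genes tested (48.0%) were called, 3100 higher (17.1%) and 5588 lower (30.9%) in tumours. By at least 2-fold, 1588 (8.77%) were higher and 1663 (9.19%) lower, and the 3 tumours lay apart from the 3 normal livers in 10630 genes (58.7%). Counts of gene lists below are to be read against these shares.

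The share of rises depends on the scaling of the arrays. The median difference of all genes was -0.145, and 35.7% of the called genes were higher. That share was 59.5% when arrays were scaled to their median (median difference 0.07), 48.5% after quantile normalisation (-0.034) and 50.7% with the percentile taken over detected probes (-0.003). Of the called genes, 3091 of the 3100 higher but 2511 of the 5588 lower kept their call under all 3 scalings, among them 3176 of the 3251 genes changed by at least 2-fold. A list is described by its members tested (in all, 1126 of 1282 list genes were tested). A member not above background on all 3 normal arrays enters only through another group where it is bright. Counts of a list are given for another scaling where it moves them by over 1.5 times. Probes well above background made up 39.3% to 44.0% of each normal array and 44.2% to 45.7% of each tumour array. Tumours were hybridised on a slide of their own and so were the normal livers, so slide and group cannot be told apart. Tissue was measured in bulk, where fewer cells of a type and less RNA per cell cannot be told apart.

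Hepatocyte markers were strong in both groups. Albumin, Alb, had log2 levels of 10.61, 10.83 and 10.78 in tumours and 11.08, 10.86 and 10.76 in normal livers, and its difference of -0.16 ± 0.10 was not called (adjusted p = 0.24). Hnf4a, a transcription factor that defines hepatocytes, lay at 7.40, 7.44 and 7.46 against 7.34, 7.61 and 7.33. Of 10 hepatocyte markers 6 were lower and 1 higher (3 lower under each of the other scalings, and without tumour 1 or normal liver 1). Both groups overlapped in Alb and Hnf4a, while the hepatocyte enzymes Tat, Cps1 and Cyp2e1, described below, fell.

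**Figure D1:**
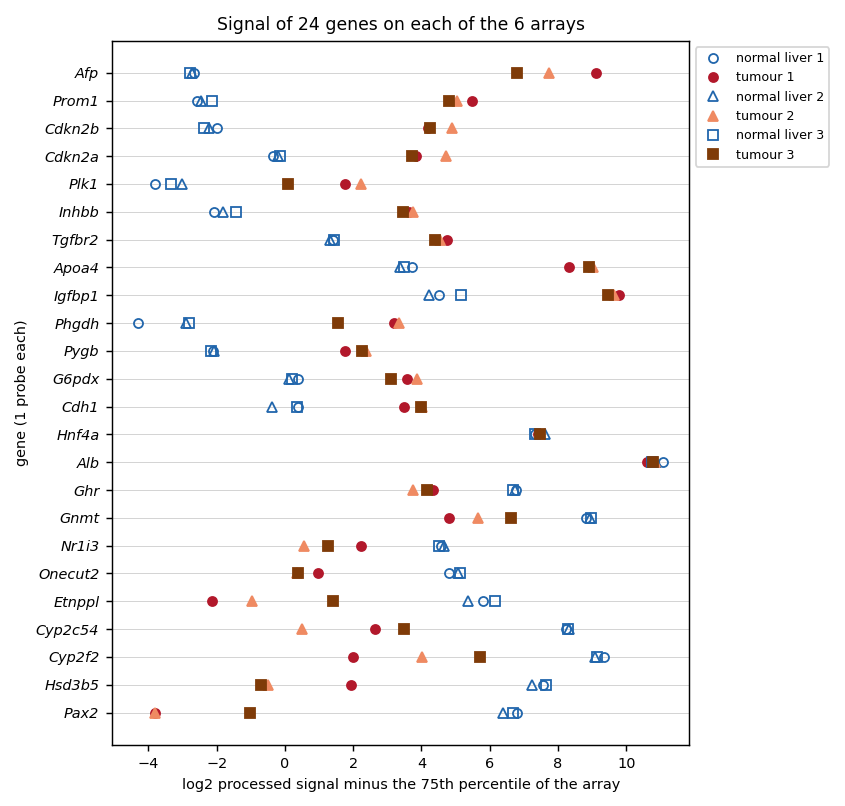
Log2 level (processed signal minus the 75th percentile of the array) of 24 genes on each of the 6 arrays, with filled symbols for tumours and open symbols for normal livers. Tumours lie to the right of normal liver from Afp down to Cdh1, overlap with it in Hnf4a and Alb, and lie to the left from Ghr down to Pax2, with no error bars because every sample is drawn.

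Many genes of mitosis rose by large factors in all 3 tumours. Of 30 genes of mitosis and spindle listed, 21 were bright enough to be tested, and 20 of these were called higher and none lower, with a median difference of 3.21. Only 5 of the 21 were above background on all 3 normal arrays. The rest were tested only because another group was bright, which favours a rise. Among them, 8 were above background on no normal array, which fixes their direction. The other 9 listed, among them Aurkb, Bub1, Ttk and Kif11, were not tested. The mitotic kinase Plk1 had log2 levels of 1.75, 2.22 and 0.09 in tumours and -3.81, -3.03 and -3.33 in normal liver. Normal liver was not well above background on any array, which makes the rise at least 19.1-fold (adjusted p = 2.1e-05). Prc1, which bundles the microtubules of the spindle midzone, lay at 1.27, 1.94 and -0.34 against -4.10, -3.87 and -3.16, at least 14.6-fold higher. Aurka, a kinase of the spindle poles, lay at 1.40, 2.23 and -0.17 against -4.09, -2.55 and -2.62. Tumour 2 was the highest of the tumours in 20 of the 21 genes and tumour 3 the lowest in 20, where among all genes tumour 2 was highest in 38.0% and tumour 3 lowest in 30.2%. In the order of the tumours, the list had medians of 3.69, 4.21 and 2.16. The one gene not called, the spindle factor Tpx2, lay at -2.18, -2.27 and -2.21 against -2.51, -2.29 and -1.51, and its 2 probes differed in sign. Averaged over both, Tpx2 was called higher by 1.59.

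Mitotic genes are known to share a promoter element, the cell cycle homology region, and replication genes to carry binding sites of E2F factors. The promoters of 3 mitotic genes and 2 replication genes that rose are printed to show these elements. Each line holds 300 bases from RefSeq (GRCm38.p6), 250 before the annotated start and 50 from it on, on the strand of the gene. Capitals mark TTTGAA, on either strand, in the mitotic genes and TTTCCCGC or TTTGGCGC, on either strand, in the replication genes. Plk1 is on chr7:122159185-122159484 (plus strand), Prc1 on chr7:80294201-80294500 (plus), Aurka on chr2:172370521-172370820 (minus), Mcm5 on chr8:75109259-75109558 (plus) and Mcm6 on chr1:128359656-128359955 (minus).
Plk1: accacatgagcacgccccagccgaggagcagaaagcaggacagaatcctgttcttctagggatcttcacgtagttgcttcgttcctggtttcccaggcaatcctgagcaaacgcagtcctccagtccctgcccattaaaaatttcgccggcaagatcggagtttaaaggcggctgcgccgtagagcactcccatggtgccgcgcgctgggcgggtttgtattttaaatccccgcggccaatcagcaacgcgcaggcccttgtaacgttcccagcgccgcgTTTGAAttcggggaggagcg
Prc1: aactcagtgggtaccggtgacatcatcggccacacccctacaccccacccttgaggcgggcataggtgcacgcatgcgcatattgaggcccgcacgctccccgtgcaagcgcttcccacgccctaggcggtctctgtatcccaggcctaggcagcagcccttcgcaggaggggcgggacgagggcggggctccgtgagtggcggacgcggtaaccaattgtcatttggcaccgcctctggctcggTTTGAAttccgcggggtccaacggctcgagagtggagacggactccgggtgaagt
Aurka: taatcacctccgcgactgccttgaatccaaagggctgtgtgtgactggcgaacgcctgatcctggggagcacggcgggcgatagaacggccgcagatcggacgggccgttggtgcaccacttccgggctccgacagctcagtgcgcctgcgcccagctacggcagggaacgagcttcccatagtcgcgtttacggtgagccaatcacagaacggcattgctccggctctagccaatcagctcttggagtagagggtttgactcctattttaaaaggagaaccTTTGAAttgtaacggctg
Mcm5: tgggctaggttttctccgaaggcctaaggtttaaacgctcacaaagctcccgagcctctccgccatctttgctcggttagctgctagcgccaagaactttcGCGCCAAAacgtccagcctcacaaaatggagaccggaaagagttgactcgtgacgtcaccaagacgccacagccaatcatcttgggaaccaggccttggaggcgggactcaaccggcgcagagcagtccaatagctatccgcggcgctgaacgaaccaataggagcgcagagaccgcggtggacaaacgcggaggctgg
Mcm6: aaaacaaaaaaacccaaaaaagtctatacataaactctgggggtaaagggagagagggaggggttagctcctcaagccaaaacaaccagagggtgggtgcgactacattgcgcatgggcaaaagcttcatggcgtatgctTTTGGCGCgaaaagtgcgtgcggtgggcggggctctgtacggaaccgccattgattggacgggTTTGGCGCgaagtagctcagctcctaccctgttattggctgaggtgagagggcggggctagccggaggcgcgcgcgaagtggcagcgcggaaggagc

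TTTGAA stood in 12 of 18 promoters (66.7%) of the tested mitosis genes that have one in the table, in 2 of 21 promoters of the replication list and in 12.4% of the promoters of all 10481 genes tested that have one. The E2F sequences stood in 8 of 21 replication promoters (38.1%), in 0 of 18 mitosis promoters and in 2.8% of all. TTTGAA stood in 12.5% of called higher genes and 13.2% of called lower genes, and the E2F sequences in 2.8% and 2.2%. A match describes letters in this window and is not a measured binding site. For genes with several promoters the table's first was searched.

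DNA replication genes moved less and not all one way. Of 26 tested, 17 were called higher and 3 lower, with a median of 0.68. The helicase subunits Mcm2, Mcm5 and Mcm6 rose by 2.12 ± 0.30, 2.02 ± 0.33 and 1.44 ± 0.28. Mcm5 lay at -0.06, 0.44 and -0.37 against -1.63, -2.33 and -2.09, and Mcm6 at 3.32, 3.19 and 2.68 against 1.68, 1.29 and 1.90. Cyclin E1, Ccne1, which drives entry into S phase, had log2 levels of 1.66, 2.65 and 1.73 against -1.91, -1.03 and -1.24, all tumours far above all normal livers. Rrm2, a subunit of ribonucleotide reductase, rose by 2.13 ± 0.34. The sliding clamp Pcna, often used as a proliferation marker, overlapped between groups at 3.32, 3.43 and 3.08 against 3.18, 3.29 and 3.15 (adjusted p = 0.58). The licensing helicase Mcm7 and the loading factor Cdt1 were not called either, though Mcm7 was higher after quantile normalisation (0.32) and with detected probes (0.35). There were 3 falls: the replication factor Mcm10 from 5.39, 5.52 and 5.47 to 2.09, 2.62 and 2.69, thymidine kinase Tk1, which fell by 1.53, and Gins1, which fell by 0.73. Early cell cycle genes did not all follow the mitotic ones.

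Of 7 CDK inhibitors, 4 rose, among them Cdkn2b, Cdkn2a and Cdkn1a, while Cdkn1b fell and Cdkn1c and Cdkn2d were not called. In the full list of 15 genes, which includes cyclins, their kinases and the Rb family, 9 were called higher and 2 lower (1 lower under median scaling and with detected probes). Cdkn1c (p57) lay at -0.54, 0.27 and 0.47 against -0.64, -0.47 and -0.53, and was called higher under each of the 3 other scalings. Cdkn2b (p15, probe at chr4:88952276-88952335, mm9) had log2 levels of 4.20, 4.90 and 4.25 in tumours and -2.0, -2.22 and -2.36 in normal liver, a rise of 6.64 ± 0.22, or 100-fold (adjusted p = 2e-08). Its neighbour Cdkn2a (p16 and p19, chr4:88920405-88920464) lay at 3.84, 4.73 and 3.71 against -0.34, -0.19 and -0.16. Cdkn1a (p21), a target of p53, lay at 3.13, 3.30 and 2.52 against -0.38, -0.82 and -0.88. In these 3 inhibitors every tumour was above every normal liver by more than the spread within either group. Cdkn1b (p27) fell by 0.31, a call kept under 1 of the 3 other scalings and not shared in sign by its other probe, and Rb1 itself was not called at 0.77, 0.82 and 0.85 against 0.91, 0.23 and 0.65. Of its relatives, Rbl1 (p107), above background on no normal array, was at least 3.3-fold higher, with its other probe off in both groups, and Rbl2 (p130) fell by 1.07. Cyclin D1, Ccnd1, rose by 1.94 ± 0.29.

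Targets of p53 were higher in 15 of 19 genes tested and lower in none (median 1.45). Among the 19, 15 were above background on all 3 normal arrays and 3 on none. Those not above it on all 3 were tested only because another group was bright, which favours a rise. Phlda3, which restrains AKT, lay at 4.84, 4.75 and 3.70 against -0.39, -0.29 and -0.48, and the death receptor Tnfrsf10b was at least 20.4-fold higher. Btg2, which slows proliferation, lay at 2.61, 2.36 and 2.19 against -1.62, -1.65 and -1.29. All tumours were above all normal livers in these 3 genes. Trp53, which encodes p53, rose by 0.40 ± 0.11, a call lost without normal liver 3 (0.33) and with normexp background correction (0.07). The apoptosis gene Bbc3, at 3.37, 3.71 and 3.72 against 3.93, 3.48 and 3.57, and Perp and Sesn1 overlapped between groups.

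Output genes of the RAS and MAP kinase pathway were higher in 11 of 15 and lower in 1, with medians of 1.24, 1.33 and 1.21 in the 3 tumours. Only 11 of the 15 tested were above background on all 3 normal arrays, and 2 on none. Those not above it on all 3 were tested only because another group was bright, which favours a rise. A further 5 of the 20 listed were not tested. The list holds feedback genes, which accumulate when the pathway is active, and other genes such as Ccnd1, Il1rn and Hbegf. The feedback genes Dusp4 and Spry4 were not called. Dusp5, a phosphatase that retains ERK in the nucleus, was at least 3.63-fold higher, from no array above background in normal liver to -1.07, -0.85 and -1.21. Spry1, a feedback inhibitor, lay at 1.75, 3.05 and 2.90 against 0.22, -0.02 and -0.16, and the transcription factor Etv4 rose by 2.18 ± 0.21. Its relative Etv1 fell by 1.02 on its brightest probe, while another probe, above background in tumour 1 alone, had the opposite sign. Hras (0.27 ± 0.12, adjusted p = 0.079) and Braf (-0.30 ± 0.13, adjusted p = 0.079), both mutated in many mouse liver tumours, were not called by level, and the arrays do not read mutations. Hras was called higher under each of the 3 other scalings, by 0.49, 0.42 and 0.41, and without tumour 3, by 0.35. Among receptors and ligands of this pathway, Egfr had log2 levels of 3.53, 3.84 and 3.56 in tumours and 5.25, 5.96 and 5.46 in normal liver and fell by 1.91. The EGF family ligands Hbegf and Tgfa rose by 1.36 ± 0.13 and 0.91 ± 0.18, but Tgfa was not called with normexp background correction (0.19). The HGF receptor Met rose by 0.76 ± 0.18 and Hgfac, the protease that activates HGF, by 1.08 ± 0.17, while Hgf, a product of stellate cells, fell from -1.18, -1.13 and -1.41 to -2.89, -3.37 and -2.78.

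The TGF-beta and activin pathway, which restrains hepatocyte growth, showed gains and losses by ligand, with 11 of 22 genes higher and 5 lower. Among ligands, the activin B subunit Inhbb had log2 levels of 3.62, 3.74 and 3.46 against -2.08, -1.83 and -1.45 in normal liver, a rise of 5.39 ± 0.34 (adjusted p = 1.6e-06). Of the hepatocyte activin subunits, Inhbe fell by 2.0 and Inhbc fell by 0.99. Tgfb2, above background on 1 normal array, rose by 3.07 ± 0.28. The receptor Tgfbr2 lay at 4.74, 4.53 and 4.40 against 1.40, 1.32 and 1.44, 9.01-fold higher with little spread in either group. Follistatin, Fst, a secreted activin antagonist, lay at 4.58, 5.07 and 4.89 against 0.65, 0.98 and 1.12. The shared mediator Smad4 was not called, and of the inhibitory members Smad6 fell by 0.90 and Smad7 fell by 0.81. Id1 rose by 1.95 ± 0.45 and Id3 fell by 1.01, the latter not called without tumour 1 (-0.88). A list of 14 Hippo pathway genes held targets of YAP and TEAD and also Yap1, Wwtr1, Tead1 and Tead4, which are not targets. Of the 14, 7 were called higher, among them Wwtr1 and Tead4, and 1 lower (0 under median scaling), with a median of 0.40. Ccn2 rose by 1.06 ± 0.15 and Ajuba by 2.26 ± 0.22, while Ccn1, at 0.33, 0.39 and -0.11 against 0.03, -0.12 and 0.61, overlapped.

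Zonation differed from tumour to tumour, and the medians of pericentral genes lay farther apart than those of any other of the 51 pathway lists. Of 19 pericentral genes tested, 10 were called lower and 2 higher, yet in the order of the tumours the list had medians of 0.27, -3.31 and -2.07. Tumour 1 was the highest tumour in 18 of the 19 genes, against 29.0% of all genes. Glutamine synthetase, Glul (chr1:155756765-155756824, mm9), found only around the central vein in normal lobules, lay at 6.25, 0.41 and 1.80 against 5.57, 5.53 and 5.54, so that tumour 1 was above and tumours 2 and 3 far below normal liver. Its difference of -2.73 ± 1.11 was not called (adjusted p = 0.065), and without tumour 1 Glul was called lower, by -4.44. The Wnt target Tbx3 lay at 2.97, -1.04 and 0.03 against 2.91, 3.21 and 3.8. Cyp2e1, a P450 of the pericentral zone, lay at 8.95, 5.01 and 6.34 against 10.03, 10.03 and 10.09, and Cyp1a2 at 1.90, -2.54 and 0.42 against 5.02, 4.83 and 5.06, below normal in all 3 tumours. A further 3 members, named after their values were seen, had tumour 1 above and tumours 2 and 3 below every normal liver. Lgr5, a receptor of the Wnt pathway that does not bind Wnt itself, lay at 2.50, -2.28 and -1.65 against 0.14, -0.42 and -0.12. The ammonium carrier Rhbg lay at 4.38, -1.08 and 0.22 against 2.21, 2.26 and 2.40, and the Wnt target Sp5 at 1.18, -3.67 and -3.19 against -0.81, -0.34 and 0.07. Ctnnb1, which encodes beta-catenin, was called higher at 4.24, 4.09 and 4.02 against 3.29, 3.36 and 3.50. Tbx3 was called lower although tumour 1 lay within the range of normal liver, and it was not called without tumour 2 (-1.81), tumour 3 (-2.34) or normal liver 3 (-2.41). Without tumour 1, Lgr5, Rhbg and Sp5 were called lower, by -1.83, -2.72 and -3.07. Leaving out 1 sample gave 6 to 15 lower pericentral genes. The count was 6 without normal liver 3, and also 6 in a fit of the 6 arrays alone.

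Periportal genes showed the opposite order. Of 19 tested, 10 were lower and 1 higher (3, 2 and 2 higher under the median, quantile and detected-probe scalings), with medians of -1.73, -0.82 and -0.52 in the order of the tumours, and tumour 1 was the lowest tumour in 17 of the 19, against 46.0% of all genes. The periportal P450 gene Cyp2f2 lay at 2.0, 4.01 and 5.70 against 9.34, 9.09 and 9.15. Etnppl, which breaks down phosphoethanolamine, lay at -2.13, -0.96 and 1.41 against 5.79, 5.35 and 6.16. Both were far below normal liver in all tumours and lowest in tumour 1. The histidase Hal, at 5.14, 6.51 and 6.93 against 7.06, 6.85 and 7.08, was clearly low in tumour 1 alone and was not called, except without tumour 3 (-1.17). E-cadherin, Cdh1, the one member that rose, lay at 3.48, 4.02 and 4.0 against 0.37, -0.37 and 0.35. Without tumour 1, 4 periportal genes were called higher.

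**Figure D2:**
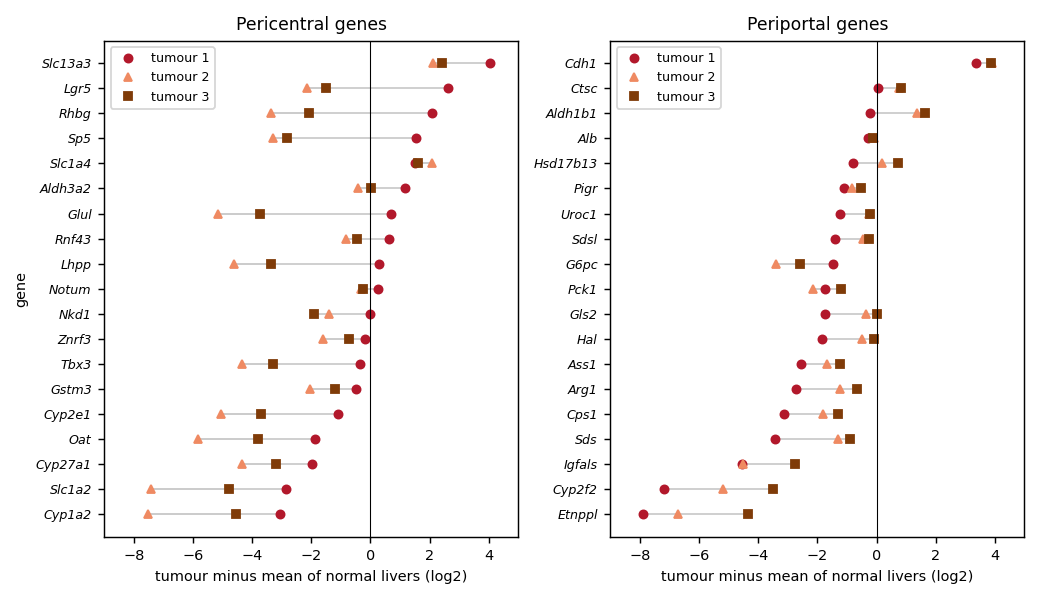
Tumour minus the mean of the 3 normal livers (log2) for the 19 pericentral and 19 periportal genes tested, 1 symbol per tumour, with a grey line joining the tumours of a gene. Tumour 1 is the rightmost tumour in 18 pericentral genes and the leftmost in 17 periportal genes.

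Liver transcription factors were not lost as a class. Of 20 tested, 2 were higher and 8 lower (5 lower under median scaling, and 5 without tumour 2, without tumour 3 or without normal liver 3). Onecut2 had log2 levels of 0.97, 0.35 and 0.37 against 4.80, 5.07 and 5.13, 21.7-fold lower with no overlap. Cebpa, which drives metabolic genes, fell by 0.76 and Gata4 fell by 0.81 (not called under median scaling, -0.60), while Foxa3 rose by 1.25 ± 0.33 and Gata6 by 0.59 ± 0.10. Of 22 nuclear receptors, 13 were lower and 3 higher (6, 8 and 8 lower under the median, quantile and detected-probe scalings). Nr1i3 (CAR), a sensor of drugs, lay at 2.24, 0.56 and 1.25 against 4.56, 4.65 and 4.5, and the bile acid receptor Nr1h4 (FXR) at 3.61, 3.76 and 3.99 against 5.10, 5.51 and 5.39. The retinoic acid receptor Rarg moved the other way, from 0.96, 0.90 and 0.94 to 3.27, 3.47 and 3.15, and Pparg, a driver of fat storage, rose by 0.99 ± 0.14.

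Single genes of the growth hormone axis fell strongly, while the axis as a list did not stand apart from all genes. Ghr had log2 levels of 4.33, 3.75 and 4.15 against 6.78, 6.75 and 6.69. Its target Igf1 lay at 4.75, 5.40 and 6.23 against 7.50, 7.51 and 7.49, and Igfals, which keeps IGF-1 in the circulation, at -0.93, -0.92 and 0.84 against 3.52, 3.76 and 3.55. In all 3 genes every tumour was below every normal liver. Igfbp1, a binding protein that insulin represses, rose from 4.51, 4.21 and 5.16 to 9.78, 9.63 and 9.47, and Igf2r, which clears IGF-2, rose by 1.06 ± 0.13. In the whole axis 3 of 18 genes were higher and 6 lower, with a median of -0.06. Genes with higher expression in male liver, which need pulsatile growth hormone, were lower in 18 of 21 and higher in 2, with a median of -2.76. The steroid dehydrogenase Hsd3b5 lay at 1.92, -0.51 and -0.71 against 7.56, 7.24 and 7.66, and Susd4, a complement regulator, at 3.83, -1.56 and 0.05 against 6.03, 5.91 and 6.27, both highest in tumour 1. Exceptions were the carboxylesterase Ces2b, higher by 1.94 ± 0.17, and Serpina12, higher by 1.53 ± 0.40. Of 16 genes with higher expression in female liver, 8 were higher and none lower, though 2 were lower without tumour 1 and 1 without normal liver 3. Among the 16, 11 were above background on all 3 normal arrays and 3 on none. Those not above it on all 3 were tested only because another group was bright, which favours a rise. The sulfotransferase Sult2a1 was at least 7.90-fold and its relative Sult2a2 at least 109-fold higher, while Cyp17a1, at 4.06, 4.49 and 4.54 against 4.91, 4.41 and 4.35, overlapped.

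Enzymes of nitrogen metabolism fell broadly. Of 14 urea cycle genes and carriers 10 were lower and 1 higher, and of 26 enzymes of amino acid breakdown 21 were lower and none higher, with a median of -1.11. Carbamoyl phosphate synthetase Cps1, which starts the urea cycle, lay at 2.81, 4.11 and 4.64 against 5.93, 5.85 and 6.0. The aspartate carrier Slc25a13 lay at 3.30, 3.30 and 3.46 against 5.22, 5.27 and 5.34, with almost no spread within either group. Glutamate dehydrogenase, Glud1, was the one member that rose, by 0.58 ± 0.13. Among enzymes of breakdown, proline dehydrogenase Prodh lay at 3.03, 0.66 and 2.79 against 6.83, 6.48 and 6.38. Of the tyrosine enzymes, Tat fell by 2.65 and Hpd fell by 2.99. Amino acid carriers moved in both directions. Slc7a7 rose by 2.35 ± 0.14, Slc7a1, which takes up arginine, by 1.76 ± 0.20 and Slc1a4 by 1.73 ± 0.22, while the glutamate carrier Slc1a2, a pericentral gene, lay at -0.93, -5.48 and -2.86 against 1.93, 1.71 and 2.16.

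Serine synthesis, by contrast, rose at each of its 3 steps. Phgdh, which commits glucose carbon to serine, lay at 3.18, 3.34 and 1.56 against -4.30, -2.91 and -2.81 (adjusted p = 8.3e-06), and both of its probes agreed in sign, with 1 normal array above background. Psat1 was at least 24.4-fold higher and Psph rose by 1.98 ± 0.20. These 3 genes were listed with the ATF4 response, of which 7 of 25 genes were higher and 5 lower (0 lower under median scaling, 2 after quantile normalisation, 1 with detected probes, 3 without any one tumour and 1 without normal liver 2). Atf4 itself, at 6.59, 6.80 and 6.34 against 6.69, 6.96 and 6.80, was not called, and the chaperone Hspa5 was called lower only without normal liver 1 (-0.60). Asparagine synthetase, Asns, differed between tumours at 4.84, 2.43 and -0.76 against -0.51, 1.67 and 1.92.

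The methionine cycle, which supplies methyl groups for DNA and for arsenic, was lower at most steps. Of 24 genes, 18 were lower and 2 higher. Glycine methyltransferase Gnmt had log2 levels of 4.81, 5.65 and 6.62 against 8.82, 8.95 and 8.96, and Ahcy, which removes S-adenosylhomocysteine, lay at 2.25, 2.62 and 2.93 against 5.20, 5.08 and 5.17. Nnmt, which methylates nicotinamide, was at least 10.4-fold lower and above background in none of the tumours. The arsenic methyltransferase As3mt was the exception, at 1.40, 1.75 and 1.97 against 0.50, 0.74 and 0.71, a rise of 1.06 ± 0.16 (adjusted p = 0.0004). Aqp9, a channel that admits arsenite and glycerol, fell from 1.48, 1.62 and 1.39 to 0.36, -0.80 and -0.29. Mat2a, the S-adenosylmethionine synthetase outside adult liver, was not called. Of 18 genes of the DNA methylation machinery, 1 was higher (2 under the median and quantile scalings, 3 with detected probes) and 1 lower. Uhrf1, which guides DNMT1 to replicating DNA, lay at -0.12, 0.41 and -0.58 against -3.54, -3.05 and -2.53, and Tet1, which oxidises methylcytosine, at -1.51, -1.19 and -1.10 against 1.23, 1.02 and 1.09. Other probes of Uhrf1 and Tet1 were above background on no array of either group, so each call rests on the brightest probe alone. Dnmt1, at -1.48, -1.31 and -1.55 against -1.61, -1.53 and -1.59, was called only with detected probes (0.27).

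Mitochondrial subunits fell by a small and uniform amount. Of 36 subunits of oxidative phosphorylation, 35 were called lower and none higher, with a median of -0.74, and medians of -0.86, -0.68 and -0.65 in the 3 tumours. Under median scaling 22 were lower. All 36 had every tumour below every normal liver. Sdhb, of complex II, lay at 6.57, 6.99 and 7.04 against 8.01, 7.96 and 8.01, and Cox4i1, of complex IV, at 7.20, 7.50 and 7.43 against 8.35, 8.25 and 8.34. In contrast, 34 cytosolic ribosomal proteins had a median of 0.01, with 1 called higher (Rps6) and 1 lower (Rps2). After quantile normalisation 19 of them were called higher and 0 lower, and with detected probes 5 higher, so their direction depends on the scaling, and without tumour 1, without tumour 2 or without any one of the normal livers 0 were. Of 31 genes of fatty acid oxidation, 25 were lower and 2 higher. The thioesterase Acot1 lay at -0.06, -0.91 and 0.02 against 2.92, 2.81 and 2.87, and Cpt2, of the carnitine shuttle, fell by 1.49. Cpt1a, which admits fatty acids to mitochondria, rose from 4.69, 4.83 and 4.82 to 5.60, 5.79 and 5.51.

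**Figure D3:**
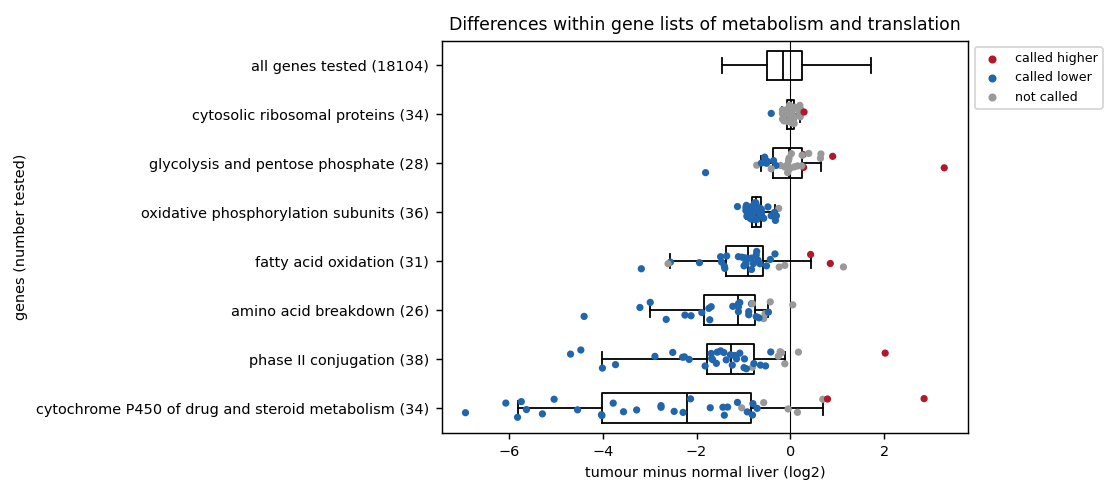
Difference between tumours and normal liver (log2) for the members of 7 gene lists and for all genes tested. Boxes show the median and quartiles, whiskers the 5th and 95th percentiles, and points the single members, with 35 of 36 oxidative phosphorylation subunits called lower around a median of -0.74 and ribosomal proteins around 0.01.

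Glucose metabolism changed in selected enzymes. Glycolysis and the pentose phosphate pathway had 4 higher and 7 lower of 28 (1 lower under median scaling, 4 after quantile normalisation; 2 higher without tumour 1, normal liver 2 or normal liver 3), and lactate dehydrogenase Ldha rose by 0.28 ± 0.10, a call lost without tumour 1 (0.24), tumour 2 (0.26), normal liver 2 (0.28) or normal liver 3 (0.24). Glucose-6-phosphate dehydrogenase, G6pdx, which makes NADPH, lay at 3.58, 3.88 and 3.11 against 0.37, 0.13 and 0.21, 9.75-fold higher, and the next NADPH enzyme, Pgd, rose by 0.90 ± 0.17. Pdk1, which shuts pyruvate out of mitochondria, fell by 1.81. Of 21 liver enzymes of gluconeogenesis, glycogen and glucose handling, 15 were lower and 3 higher. Glucose-6-phosphatase G6pc lay at 4.44, 2.51 and 3.32 against 5.63, 5.19 and 6.90. The brain and fetal form of glycogen phosphorylase, Pygb, rose from -2.12, -2.07 and -2.18 to 1.75, 2.36 and 2.27. Glycogen synthase of liver, Gys2, was not called at 5.84, 5.78 and 5.64 against 5.63, 5.35 and 5.68, but was called higher after quantile normalisation (0.44) and with detected probes (0.34).

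Lipid genes were rearranged rather than moved one way. Of 24 genes of fatty acid synthesis, 9 were higher and 8 lower (5 lower under median scaling). The desaturase Scd2, low in adult liver, lay at 6.49, 6.71 and 6.05 against -0.11, -0.03 and -0.11, while its adult relative Scd1 was not called at 7.73, 7.70 and 7.87 against 7.34, 7.47 and 6.67, although all tumours lay above normal liver and it was called higher under median scaling (0.82) and quantile normalisation (0.81). The elongase Elovl3 lay at -2.11, -1.83 and -2.55 against 5.85, 4.15 and 5.04, while Elovl7, above background on 1 normal array, rose by 5.48 ± 0.57. Fads1 and Fads2, which desaturate long-chain fatty acids, rose by 1.51 ± 0.15 and 1.63 ± 0.14. The lipogenic regulator Srebf1 fell by 1.43. Of 21 lipid droplet genes, 10 were higher and 6 lower (3 lower under median scaling). Cidea, a droplet protein of brown fat and fatty liver, was at least 100-fold higher, Cidec rose by 4.89 ± 0.44, and the fatty acid carrier Fabp5 lay at 8.13, 8.57 and 8.26 against 5.30, 4.97 and 4.81. Fitm1 lay at -0.52, -3.76 and -1.88 against 2.20, 2.14 and 2.22, and Plin5, of droplets beside mitochondria, fell by 1.72.

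Bile acid synthesis was lower almost throughout, with 17 of 19 genes lower and 1 higher (median -1.47). The sterol hydroxylase Cyp8b1 lay at -0.77, -2.31 and -0.02 against 4.81, 4.33 and 4.5. Cyp7a1, the rate-limiting enzyme, lay at -0.92, -5.49 and -3.93 against 1.91, 3.41 and 2.46, and Cyp7b1 at 4.66, 0.15 and 1.77 against 7.66, 7.51 and 7.79, tumour 1 being the highest tumour in both. The exception was Cyp39a1, an oxysterol hydroxylase, which rose from 1.18, 1.23 and 0.96 to 4.34, 5.12 and 4.80. Of 20 transporters 4 were higher and 8 lower. The organic anion carriers Slco1b2 and Slc22a7 lay at 6.67, 2.25 and 4.10 against 8.07, 8.22 and 8.18, and at 0.99, 1.48 and 2.50 against 6.06, 6.0 and 5.82. The bile acid importer Slc10a1 was not called at 9.47, 9.88 and 9.83 against 9.91, 9.92 and 9.90 on its brightest probe, and was called lower, by -1.60, when its probes were averaged. The multidrug exporter Abcb1a rose by 2.73 ± 0.30.

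Drug metabolism showed the largest fall of the pathway lists apart from male-biased genes. Of 34 cytochrome P450 genes of drug and steroid metabolism, 27 were lower and 2 higher, with medians of -1.60, -2.92 and -1.91 in the tumours. Members of the Cyp2c subfamily are similar in sequence and their probes may share signal. Cyp2c54 lay at 2.65, 0.51 and 3.50 against 8.24, 8.33 and 8.29, Cyp2c37 at 2.13, 0.19 and 2.63 against 7.13, 7.28 and 7.41, and tumour 2 was lowest in both. Cyp2g1 was at least 47.3-fold lower. Cyp2d26, at 9.34, 9.78 and 9.73 against 9.73, 9.64 and 9.64, and Cyp2b10 were not called, except Cyp2d26 after quantile normalisation (0.32). Of 38 phase II genes, 31 were lower and 1 higher (2 higher after quantile normalisation and with detected probes). The glutathione transferase Gsta2 lay at 0.16, -0.35 and 0.66 against 4.86, 4.81 and 4.87, and the carboxylesterase Ces1f at 3.11, 3.33 and 3.63 against 7.16, 7.10 and 7.02. Its relative Ces2e rose from 6.37, 6.2 and 5.98 to 8.21, 8.36 and 8.05.

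Antioxidant and metal genes were mixed. Of 22 genes of the NRF2 and glutathione list, 5 were higher and 11 lower (9 higher after quantile normalisation, 8 with detected probes, 7 lower under median scaling). Nfe2l2, which encodes NRF2, rose by 1.0 ± 0.13, while its target Nqo1 lay at -5.46, -2.60 and -1.93 against -0.97, -0.73 and -1.31, a fall not called without normal liver 1 (-2.31) or normal liver 2 (-2.19). Glutathione peroxidase Gpx1 lay at 7.72, 6.80 and 7.51 against 9.74, 9.62 and 9.74, and catalase, Cat, fell by 2.03. Of 25 metal genes 3 were higher (5 after quantile normalisation) and 10 lower. Hepcidin, Hamp, the hormone that limits iron uptake, lay at 3.47, 4.04 and 5.82 against 8.13, 8.31 and 8.38, the ferritin chain Ftl1 fell by 1.34, and the zinc importer Slc39a4 rose by 1.80 ± 0.13. The metallothioneins Mt1 and Mt2 varied within both groups, Mt1 at 6.33, 6.56 and 7.25 against 5.23, 7.83 and 6.47, and were not called.

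In lists of secreted proteins more genes were called lower than higher, as among all genes, but this balance depended on the scaling. Of 39 complement and coagulation genes 4 were higher (9 after quantile normalisation) and 21 lower (11 under median scaling). Terminal complement genes were among the falls, with C9 at 1.87, 1.94 and 2.0 against 4.57, 4.09 and 4.19 and C8b at 4.20, 3.48 and 3.87 against 6.62, 6.53 and 6.67. Fibrinogen, Fgb, and prothrombin, F2, were not called, but were higher after quantile normalisation (0.27 and 0.19). Of 26 genes of lipoproteins 8 were higher and 13 lower (7 lower under median scaling). Apoa4, an apolipoprotein of intestine and fatty liver, lay at 8.31, 9.04 and 8.91 against 3.71, 3.37 and 3.49, 37.5-fold higher, Apom rose by 1.57 ± 0.12, and hepatic lipase Lipc fell by 3.4. Of 24 serum carriers and protease inhibitors 4 were higher and 14 lower (6, 6 and 9 lower under the median, quantile and detected-probe scalings). The trypsin inhibitor Spink1 lay at 5.79, 6.82 and 5.41 against -1.84, -1.20 and -2.07 and the elastase inhibitor Slpi at 7.49, 8.24 and 8.45 against -0.82, 0.89 and -0.18. Serpinb1a, another elastase inhibitor, lay at -2.87, -3.22 and 0.16 against 4.0, 4.31 and 4.78. Acute phase proteins differed between tumours, with 3 of 23 higher (6 after quantile normalisation, 5 with detected probes) and 8 lower. Tumour 1 was the highest tumour in 15 of them, and Orm1 lay at 4.17, 1.91 and 1.80 against 5.19, 5.24 and 5.04. Cd14 and Lcn2 rose in all 3 tumours, by 4.18 ± 0.30 and 5.99 ± 0.69.

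Epithelial and matrix genes changed in composition. Of 24 keratins, claudins and junction genes, 13 were higher and 5 lower (2 lower under median scaling, 3 after quantile normalisation). The keratins Krt20 and Krt23, not typical of hepatocytes, were at least 47.5-fold higher and at 3.85, 5.06 and 5.78 against -0.94, -1.45 and -0.96, respectively. Krt8, of normal hepatocytes, overlapped, and the gap junction gene Gjb2 fell by 1.29. Villin, Vil1, of microvilli, lay at 3.44, 0.02 and 3.63 against -1.16, -0.35 and -0.46, near normal in tumour 2 alone, and its rise was not called without tumour 1 (2.48), tumour 3 (2.39) or normal liver 1 (2.77). Annexins A2 and A5, which bind membranes, rose by 3.02 ± 0.21 (Anxa2) and 1.56 ± 0.13 (Anxa5). Of 28 matrix genes, 10 were higher and 11 lower (7 lower under median scaling). The higher count was 6 without tumour 2 or normal liver 3 and 5 without normal liver 2. Sparc lay at 9.16, 9.62 and 9.25 against 6.85, 6.57 and 6.64, and the basement membrane collagen Col4a1 rose by 1.33 ± 0.20, while decorin, Dcn, lay at 3.98, 4.06 and 3.84 against 6.07, 6.0 and 5.80.

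Markers of other cell types moved separately from one another. Of 16 markers of stellate cells and fibroblasts 10 were lower and 2 higher (1 without normal liver 2), and their summed signal, in units of the 75th percentile of the array, ranged from 44.7 to 87.8 in tumours and from 144 to 165 in normal liver. Lrat, which stores retinol in stellate cells, lay at -2.74, -2.95 and -2.77 against -0.36, -0.99 and -1.0. Acta2, of activated stellate cells and smooth muscle, rose by 1.5 ± 0.36. Of 14 markers of Kupffer cells and macrophages 7 were lower and 1 higher (4 lower under each of the 3 other scalings, and 4 without tumour 2 or normal liver 1). The Kupffer cell lectin Clec4f lay at 2.27, 1.65 and 2.12 against 3.95, 3.75 and 4.03, while Mpeg1 rose by 1.99 ± 0.25 and its probes agreed in sign. Of 19 endothelial markers 5 were higher (8 after quantile normalisation, 9 with detected probes, 3 without normal liver 3) and 4 lower (2 under each of the 3 other scalings and without normal liver 1, 7 without tumour 3). Cd34, low in normal sinusoids, lay at 2.70, 1.73 and 1.76 against -1.29, -0.47 and -1.44. None of 6 bile duct markers was called (1 lower without tumour 2), with summed signals of 2.33 to 3.24 in tumours and 2.19 to 2.42 in normal liver. Of 7 markers of T and NK cells 1 was higher and 1 lower, of 5 of B and plasma cells 2 were higher and 1 lower, of 6 of neutrophils 2 were lower, and of 3 of dendritic cells 2 were higher, counts that each moved by 1 under another scaling or without 1 sample. The part of these cells in the differences above was not tested.

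Inflammatory signals differed in kind. Of 19 chemokines and receptors 10 were higher and 3 lower. Only 15 of the 19 were above background on all 3 normal arrays, and 1 on none, which favours a rise. A further 12 of the 31 listed were not tested. Cxcl14 lay at 4.12, 2.82 and 3.08 against -1.32, -1.29 and -1.02, while Cxcl12, of sinusoidal and stromal cells, lay at 3.74, 4.17 and 4.34 against 6.38, 6.73 and 6.37. Alox5, which begins leukotriene synthesis, was at least 139-fold higher, whereas Hpgd, which inactivates prostaglandins, fell by 2.26. Of 31 interferon-induced genes 5 were higher and none lower, and tumour 3 stood apart from the others. It was the highest tumour in 30 of the 31, against 33.0% of all genes, and the medians were 0.34, -0.12 and 1.19. Isg15 lay at 4.52, 4.18 and 6.40 against 3.83, 3.44 and 4.43, and Oas1a, which senses viral RNA, at 4.48, 4.06 and 5.76 against 3.02, 2.16 and 3.43. Oas1a was called higher, but not without tumour 3 (1.40) or normal liver 2 (1.54). The count of higher genes was 2 without tumour 3, 3 without tumour 1 or normal liver 2, and 8 without tumour 2, and 2 genes were called lower without tumour 3. MHC class II genes were higher in 6 of 7 and lower in none, with the highest median in tumour 1 (1.68, against 1.23 and 0.98 in tumours 2 and 3). Of the 7, 2 were above background on no normal array, which favours a rise, and 4 of the 11 listed were not tested.

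**Figure D4:**
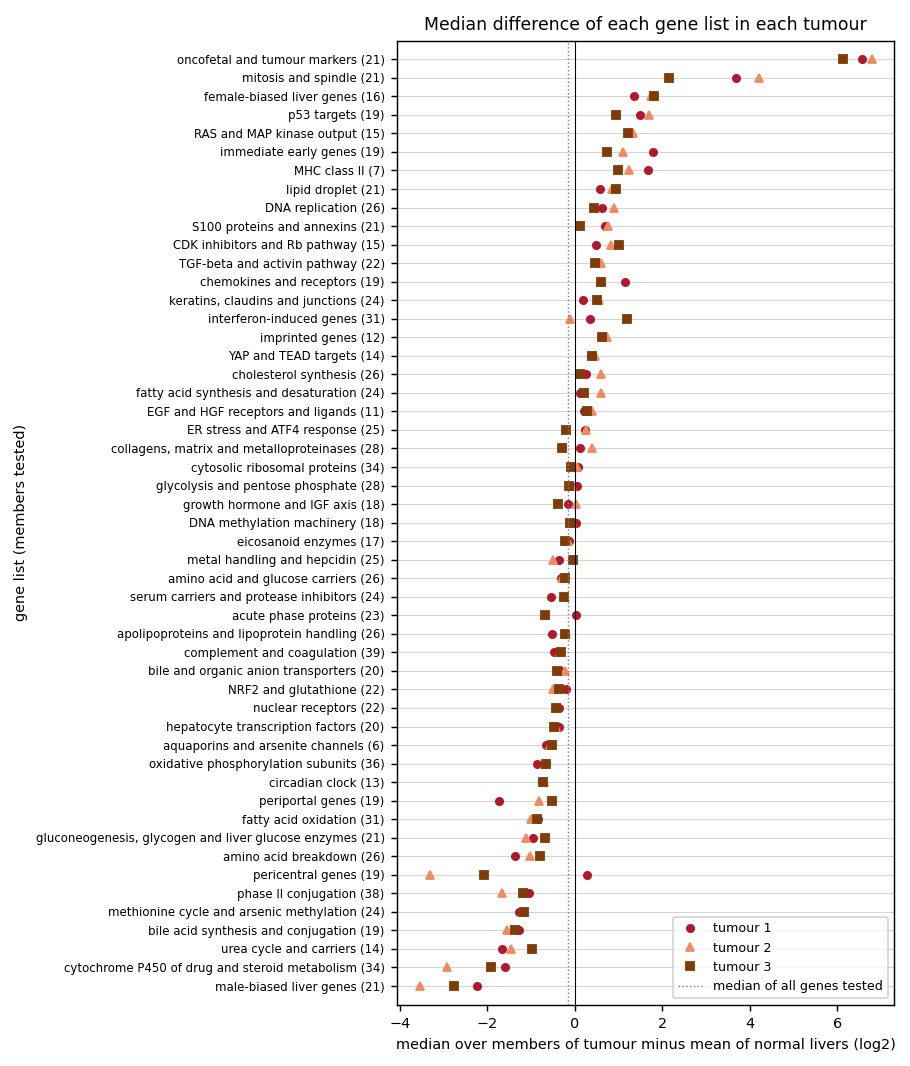
Median over the members of each of 51 gene lists of the tumour minus the mean of the normal livers (log2), 1 symbol per tumour, with the number of members tested in parentheses and the median of all genes as a dotted line. The tumours lie close together in most lists and apart in pericentral genes (0.27, -3.31 and -2.07), mitosis and spindle (3.69, 4.21 and 2.16) and interferon-induced genes (0.34, -0.12 and 1.19).

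Markers of liver tumours were higher in 17 of 21 genes and lower in 1 (0 lower under median scaling, with detected probes, or without tumour 1, tumour 2, normal liver 1 or normal liver 2), with a median of 6.5. Only 10 of the 21 were above background on all 3 normal arrays. The rest passed the filter on dim probes through another group, which favours a rise. The filter all but fixed the direction of the 6 that were above background on no normal array. The list was also chosen with earlier results of these data known, so its count and median are descriptive. Afp (chr5:90937781-90937840, mm9) lay at 9.12, 7.75 and 6.80 against -2.66, -2.72 and -2.79, and the steroid dehydrogenase Akr1c18 was at least 732-fold higher. The telomerase gene Tert fell by 0.87, a call kept under 1 of the 3 other scalings and lost without tumour 1 (-0.82), tumour 2 (-0.68), normal liver 1 (-0.75) or normal liver 2 (-0.83), and Cd44 was not called. Of 12 imprinted genes tested 5 were higher and none lower, though 2 were lower without tumour 1 and 1 without normal liver 3. Among the 12, 3 were above background on no normal array, which favours a rise. The trophoblast factor Ascl2 was at least 14.2-fold higher. Meg3, a noncoding RNA of an imprinted domain on chromosome 12 (chr12:110809678-110809737, mm9), lay at 4.23, -0.10 and -3.02 against 0.44, 1.39 and 1.27, above normal liver in tumour 1 and below it in tumours 2 and 3. Mirg, a microRNA host gene of the same domain (chr12:110987569-110987628), lay at 2.28, -2.19 and -3.65 against -2.37, -1.83 and -1.77, with the same order of the tumours. Without tumour 1, Meg3 was called lower, by -2.60. Both were among the 10 genes with the widest range between tumours, as was Xlr3b at 2.60, -2.83 and -3.90 against -2.48, 0.27 and -1.88. Without tumour 1, Xlr3b was called lower.

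Outside the lists the largest rises were in genes that were not well above background on any normal array. Erich4 (chr7:26399656-26399715, mm9) lay at 4.51, 5.26 and 4.96 and was at least 225-fold higher (adjusted p = 5.4e-09). Gldn, an extracellular protein of the nodes of nerve fibres, was at least 152-fold higher, the neuronal motor Kif5c at least 120-fold, the sulfotransferase Sult2a6 at least 104-fold and the TNF receptor family member Tnfrsf18 at least 74.9-fold. In Gldn the tumours lay close together at 4.04, 4.6 and 4.38. The largest falls were in the developmental factor Pax2, at -3.8, -3.8 and -1.02 against 6.81, 6.40 and 6.68, and Lrtm1, at -4.43, -3.76 and -1.62 against 4.83, 4.51 and 4.40. Other probes of Pax2 were above background on no array of either group, so its fall rests on its brightest probe alone. Dct, a pigment enzyme, lay at -5.48, -1.58 and -0.59 against 4.16, 4.48 and 3.74. Serpina4-ps1 fell by 7.31. Sult5a1 lay at -4.65, -3.74 and -2.8 against 2.6, 2.46 and 3.1, and its other probe was above background on no array of either group. Tumours were above background on only 1 of 3 arrays in Pax2, Lrtm1 and Sult5a1, so their falls are imprecise in size. In all, 587 genes were well above background on all tumour arrays and on no normal array, and 168 the reverse.

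The tumours varied more than the normal livers. Over the 15589 genes well above background on all 6 arrays, the median SD was 0.16 between tumours and 0.12 between normal livers, the SD was larger between tumours in 61.9% of genes, and it passed 1 in 220 genes in tumours and in 50 in normal liver. Genes of 2 chromosomes moved together in tumour 1. Relative to all genes, the median difference of 416 genes on chromosome 16 was -0.192 in tumour 1, against -0.021 and -0.015 in tumours 2 and 3, and that of 550 genes on chromosome 15 was 0.213, against 0.077 and 0.074. Each normal liver lay within 0.04 of 0 on every chromosome. On chromosome X all 3 tumours were above, by 0.080, 0.145 and 0.132. Chromosome 8 was below in all 3 tumours, at -0.096, -0.067 and -0.092. DNA copy number was not measured.

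**Figure D5:**
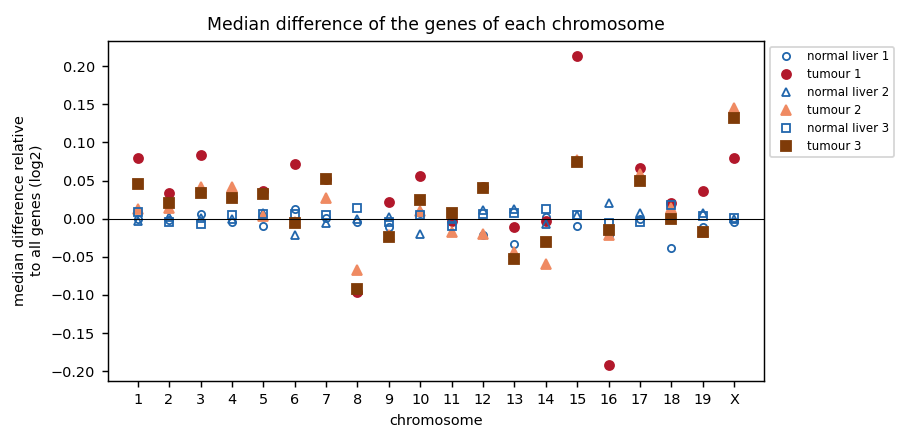
Median over the genes of each chromosome of a sample minus the mean of the normal livers, relative to the median of all genes (log2), for tumours (filled) and for each normal liver against the other normal livers (open). Tumour 1 stands apart at chromosome 15 (0.213) and chromosome 16 (-0.192).

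To see how far these results rest on the liver chosen as reference, non-tumour liver of the arsenite line was compared with normal liver of that line in the same fit. This contrast equals the difference between a tumour comparison with either liver. It called 0 of 18104 genes by limma (0%), and 1224 (6.76%) had an unadjusted p under 0.05. The median of most lists lay near 0. In cholesterol synthesis it was -0.79, where the tumours differed from normal liver by 0.36, with 3 of 26 genes higher and 4 lower. Lanosterol synthase Lss lay at 3.46, 4.23 and 3.42 against 1.84, 2.42 and 1.22, and the count of higher genes was 7 after quantile normalisation, 5 under median scaling and with detected probes, and 1 without tumour 2, normal liver 2 or normal liver 3. MHC class II genes had a median of 0.71 in that contrast, beside 1.29 in tumours.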

How the data were processed

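RNA (100 ng) of 12 liver and liver tumour samples was measured on 1-colour Agilent arrays, 1 per sample, in 4 groups of 3. Intensities are processed signals as deposited in the scanner files, background-subtracted by Agilent Feature Extraction (12.0.3.1 per the submitters' processing notes, 10.7.3.1 per the file headers). The authors' deposited value table holds the ratio of that signal to the 75th percentile of its array, as a comparison of both files showed, and was used as an alternative.

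Signals were taken as log2 minus the 75th percentile over non-control spots. Spots of a probe were averaged without those marked as outliers. A probe was kept if every array of some group measured it well above background (24148 probes), and the brightest probe stood for a gene (18104 genes). Genes were named through RefSeq by accession, otherwise by the name in the file. One limma fit (R 4.3.3, limma 3.58.1) of all 12 arrays gave each group a mean, with default eBayes and Benjamini-Hochberg adjustment over all genes. Folds written as at least N-fold compare the brighter group with, per array, the higher of the dim probe and the lowest signal well above background. The test was checked on simulated data. Figures used Python 3.11.15 and matplotlib 3.10.9.

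Members and gene lists were chosen with earlier results of these data known. Genes named were, per list, up to 6 called members in each direction with the largest difference, up to 3 members not called with the highest level and the member that varied most between tumours; outside the lists, the 12 largest rises and 12 largest falls without overlap; the 10 genes with the widest range between tumours; and a short set including Afp, Alb, Glul, Trp53, Hras, Braf, Egfr, Ctnnb1, Dnmt1, Mt1, Mt2 and As3mt. Of these the text gives a part. Array coordinates are mm9, as in the files, and promoters are GRCm38.p6. The number of arrays limits the precision. Other scalings, background correction, filters, fits and each left-out sample were tried. The design text also names normal and tumour groups of the control line, which are not analysed here.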

Additional observations from a re-analysis of the deposited data

How the results depend on the processing

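The 5 counts over all genes stayed within 1.5 times of their values under most of 19 alternatives. Without a filter on dim probes 14139 genes were called, 11071 lower, and 2827 lower by at least 2-fold. Median scaling gave 2530 lower genes. By at least 2-fold, normexp background correction gave 1019 higher and 948 lower genes, and 902 were higher among genes above background on all arrays, where fewer genes were tested. Leaving out 1 sample gave 7429 to 8081 called genes, 2630 to 2899 higher and 4770 to 5185 lower. Residual correlations between tumour and normal liver of equal number were -0.02, 0.09 and 0.03. With 3 samples per group these cannot show whether equal numbers come from the same mouse. With the number as a replicate block, 6483 genes were called in a fit of 6 arrays and 8559 in one of 12. Of 2394 counts of lists under alternatives, 2164 were within 1.5 times. Of 191 called genes named, 176 were called under every alternative. Averaging the probes of Cdkn1b turned its difference to 0.18, since its 2 probes differ in sign. The slide block could not be fitted apart from the groups.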

Other observations

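Immediate early genes, which answer growth signals within minutes, were higher in 10 of 19 and lower in 1. Only 15 of the 19 were above background on all 3 normal arrays, and 1 on none, which favours a rise. Maff, a small MAF factor, lay at 1.34, 0.65 and 0.44 against -1.96, -1.71 and -1.25 and Klf4 at 0.15, -0.02 and -0.98 against -2.39, -1.72 and -1.85, with tumour 1 highest in both. Jun overlapped, at 3.73, 3.08 and 2.61 against 2.71, 2.84 and 3.09. Of 13 clock genes 4 were lower and none higher (8 lower in a fit of the 6 arrays alone). Hlf and Tef, output factors of the clock, lay at 0.88, 0.86 and 1.39 against 2.63, 3.09 and 2.82, and at 4.20, 4.08 and 4.5 against 5.64, 6.18 and 5.95. Dbp, of the same family, was below normal liver in all tumours at 3.21, 3.76 and 3.95 against 5.01, 5.67 and 5.43 and was not called, except in a fit of the 6 arrays alone.

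Of 26 amino acid and glucose carriers 4 were higher and 10 lower (6 lower under median scaling). The glucose carrier Slc2a2 fell by 1.17 and the fructose carrier Slc2a5 fell by 2.02. Of 6 aquaporins 4 were lower, and Aqp4 lay at -2.70, -2.53 and -2.32 against 0.07, -0.60 and -0.50. Of 21 S100 proteins and annexins 9 were higher and 6 lower. The calcium-binding S100a11 rose by 2.76 ± 0.27 and S100a1 fell by 1.86. Of 17 eicosanoid enzymes 4 were higher and 4 lower, with Ptgds, a prostaglandin D synthase, at -3.55, -4.51 and -2.05 against 0.86, 0.41 and 0.69. The T cell gene Cd4 was called higher at 6.92, 7.38 and 6.93 against 5.87, 5.62 and 5.45, while its other probe, above background in none of the tumours, had the opposite sign. Among red blood cell markers 1 of 5 was lower.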
